A study of Mus musculus with 4 samples.

Results

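Principal 13 was the largest of the 4 principal cell populations recovered almost wholly from the mouse vas deferens, with 400 of the 8880 cells in the atlas. Its members were taken from the deposited cell annotation, as the population label that held exactly 400 cells, which is the size of the study's principal subcluster 13. Of these cells, 396 came from the vas deferens library and 4 from the cauda epididymis library, and they made up 11.3% of the 3506 vas deferens cells. The populations compared with it were the other 3 with at least 98% vas deferens cells, namely principal 12 (346 cells), principal 14 (139 cells) and principal 15 (332 cells). The next population by vas deferens share stood at 94.2% and was stromal, and principal 12 was just inside at 98.8%.

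All cells came from 4 droplet libraries (caput, corpus, cauda and vas deferens), each prepared from 8 pieces of tissue pooled from 4 male FVB/NJ mice of 10 to 12 weeks, for which the labels name no treatment or modified allele. The tissue was dissociated and depleted of sperm, and the cuts between the 4 segments were made by eye under a microscope. The libraries held 1433, 2325, 1616 and 3506 cells in that order, with medians of 1433 to 2207 UMIs a cell, and 43 cell barcodes occurred in more than 1 library, among them those of 3 principal 13 cells. With 1 library per region there were no replicate animals to compare, so no test was possible. The populations had also been clustered on the same counts, so each difference between them is given as a description. Levels are the summed unique molecular identifiers (UMIs, 1 per captured transcript) of a population per 1,000,000 of its UMIs (UPM), and the 95% intervals in parentheses cover counting error only. Principal 13 held 1397510 UMIs, against 1730049 in principal 12, 474637 in principal 14 and 821784 in principal 15. Its cells ranged from 265 to 14922 UMIs with a median of 1540, against 2344 in principal 12, 1474 in principal 14 and 933 in principal 15, and 162 of its 400 cells had fewer than 1000.

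The vas deferens carries sperm from the cauda epididymis to the ejaculatory duct, and its lumen is lined by principal cells standing on basal cells. Principal cells absorb and secrete fluid and ions and release proteins into the lumen. Akr1b7, first described as the mouse vas deferens protein, is an aldo-keto reductase that detoxifies reactive aldehydes and whose transcription in this organ depends on androgens. Fxyd4 encodes a small membrane regulator of the sodium-potassium pump, and Crygc a gamma-crystallin, a family best known as structural proteins of the eye lens.

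Akr1b7 was the most abundant transcript of principal 13, so the sequence before its start is shown, together with those of Crygc and its neighbour Crygb, whose levels across the 4 populations are given below. On GRCm38 (mm10, the build of the files) Akr1b7 lies on the plus strand of chromosome 6 from 34412334 to 34423142, Fxyd4 on the minus strand of chromosome 6 from 117933559 to 117937692, Crygc on the minus strand of chromosome 1 from 65071525 to 65073689 and Crygb next to it from 65080219 to 65082288 in the GENCODE M21 annotation. The stretches below are from RefSeq's windows of 250 bases before the transcript start (GRCm38.p6), read 5′ to 3′ on the gene's strand, without the bases that GENCODE places in an exon. Capitals mark TGTTCT, the reverse complement of AGAACA, the hexamer bound by androgen and glucocorticoid receptors.
Akr1b7, chr6:34412112-34412333, plus strand: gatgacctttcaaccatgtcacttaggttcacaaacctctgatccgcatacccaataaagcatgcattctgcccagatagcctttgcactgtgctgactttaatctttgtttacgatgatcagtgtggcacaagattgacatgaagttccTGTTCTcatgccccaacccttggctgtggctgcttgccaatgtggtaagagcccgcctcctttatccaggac
Crygc, chr1:65073690-65073782, minus strand: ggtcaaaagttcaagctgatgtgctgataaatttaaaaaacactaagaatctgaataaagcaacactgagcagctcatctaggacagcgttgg
Crygb, chr1:65082291-65082540, minus strand: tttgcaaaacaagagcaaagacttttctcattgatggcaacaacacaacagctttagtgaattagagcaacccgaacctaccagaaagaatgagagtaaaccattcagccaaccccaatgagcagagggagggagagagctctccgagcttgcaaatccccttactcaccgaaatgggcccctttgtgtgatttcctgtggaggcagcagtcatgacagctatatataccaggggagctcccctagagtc

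The hexamer stood 100 to 95 bases before the RefSeq start of Akr1b7, and in these letters it was not in the windows of Fxyd4, Crygc or Crygb. AGAACA on either strand was in 4369 of 27025 RefSeq windows of this length (16.2%), so a match is common. TATAAA on either strand was in 3504 of those windows and in none of these 4. The Fxyd4 window lay mostly inside an exon of a longer GENCODE transcript and is not printed. A match of letters is not a measured binding site.

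The 3 markers given for the population identified vas deferens principal cells but did not set principal 13 apart from the others. Akr1b7 stood at 49736 UPM (49367-50107) in principal 13, at 32958 in principal 12, at 70894 in principal 14 and at 96185 in principal 15. Principal 13 was thus 1.51 times principal 12 (1.49-1.53) and 0.517 times principal 15 (0.512-0.522). The order 12, 13, 14, 15 was the same in each of 4 classes of cell depth (under 1000, 1000 to 3000, 3000 to 8000 and over 8000 UMIs). In the shallowest class the 4 levels were 41105, 57261, 75472 and 103822 UPM, and in the deepest 31227, 47799, 66909 and 95757 UPM.

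Fxyd4 pooled over cells stood at 2923 UPM (2834-3014) in principal 13, 3443 in principal 12, 2848 in principal 14 and 3003 in principal 15. The ratio of principal 13 to principal 14 was 1.03 (0.965-1.09) and to principal 15 0.973 (0.926-1.02), intervals that include 1. At matched depth principal 13 was below principal 14 and 15 in shallow cells but not in deep ones. In cells under 1000 UMIs Fxyd4 was at 2078 UPM (1792-2396) in principal 13 and 2760.2 (2423-3132) in principal 15. In cells of 1000 to 3000 UMIs it was at 2630.3 UPM (2379.7-2900.1) in principal 13 and 3479 (3093-3899.5) in principal 14. In cells of 3000 to 8000 UMIs principal 13, 14 and 15 had 3013, 2740.2 and 3005 UPM, and over 8000 UMIs 3038, 2724 and 3012 UPM. Crygc pooled over cells stood at 1733 UPM (1665-1804) in principal 13, close to the 1762 of principal 12, and was higher in principal 14 (2090 UPM) and in principal 15 (3584 UPM). From the shallowest depth class up it was at 1737, 1717, 1771 and 1714 UPM in principal 13. Principal 14 had 1777, 2571, 2696 and 1685 UPM, so its excess lay in cells of 1000 to 8000 UMIs. Principal 15 was higher in each class, at 2966, 3662, 3627 and 3676 UPM. Crygb, the neighbour of Crygc, followed the same pooled order at a lower level, with 165 UPM (144-187) in principal 13, 165 in principal 12, 238 in principal 14 and 349 in principal 15. For the pair, principal 13 was 0.484 (0.458-0.510) and 0.471 (0.394-0.562) times principal 15. In the last 400 bases of the transcripts, none of the 50-base words of Akr1b7, Fxyd4, Crygc or Crygb occurred in a transcript of another gene.

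**Figure D1:**
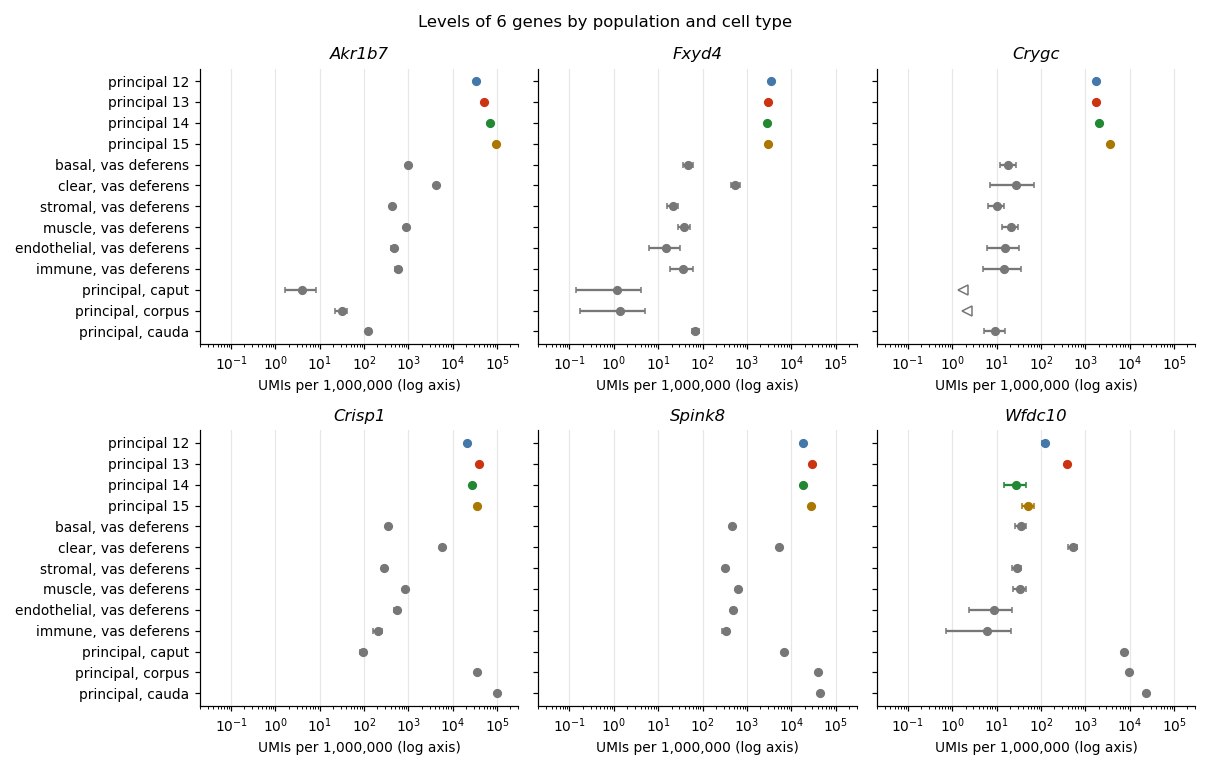
Levels of 6 genes in UPM (log axis) in the 4 vas deferens principal populations, 6 other cell types of the vas deferens library, and the remaining principal cells of the 3 epididymal libraries. Bars are 95% counting intervals and open triangles mark 0 UMIs, drawn at the level of 3 UMIs. The 3 markers are highest in principal 12 to 15, whereas Crisp1, Spink8 and Wfdc10 are at least as high in cauda principal cells.

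Other cell types of the same library gave the background level. Akr1b7 was at 978 UPM in basal cells and 427 in stromal cells, Fxyd4 at 48.1 and 21.1, and Crygc at 18.5 and 9.96. Clear cells, of which there were 38, had 4225 UPM of Akr1b7. To compare cells at equal depth, 1000 UMIs were drawn from each cell that had as many, which left 238 of 400 principal 13 cells (162 left out) and 343 of 394 basal cells (51 left out). All 238 principal 13 cells then had a UMI of Akr1b7, 87.8% (Clopper-Pearson, 83.0-91.7%) one of Fxyd4 and 56.3% (49.7-62.7%) one of Crygc. In basal cells, of median depth 3778 UMIs against 4496, the shares were 29.7%, 3.79% and 0.583%. Without thinning the shares in principal 13 were 99.5%, 71.2% and 56.2%.

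The defining genes of principal cells were present and those of other lineages were low. All 7 general principal cell markers had UMIs in principal 13, led by the keratins Krt8 at 1419.7 UPM and Krt18 at 1029.7 UPM, and the adhesion molecule Epcam was higher there (904 UPM) than in principal 12 (543), 14 (691) or 15 (780.0). The 10 immune markers summed to 14.3 UPM, the 8 endothelial markers to 17.2, the 8 clear cell markers to 129 and the 9 basal markers to 78.0 UPM. The 3 sperm markers in the matrix were at 0 UMIs, where 3 UMIs would be 2.15 UPM and the exact upper bound for their sum was 2.64 UPM, and of 5 red blood cell markers only Hba-a1 had a UMI. The 10 stromal and 8 muscle markers were higher, at 504 and 848 UPM, and are taken up below.

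After Akr1b7, the most abundant transcripts of principal 13 encoded secreted and surface proteins of the luminal epithelium. Crisp1, a cysteine-rich secretory protein that binds sperm, stood at 38809.7 UPM in principal 13, 20649 in principal 12, 26831 in principal 14 and 34389.8 in principal 15. Spink8, of the Kazal-type serine protease inhibitor family, stood at 30012, 18351, 18431 and 27984 UPM in the same order. B2m, the light chain of class I histocompatibility molecules, stood at 6663, 3749.6, 4641 and 5964 UPM. Each of these 3 genes was highest in principal 13, although the margin over principal 15 was small, with a ratio of 1.13 (1.11-1.14) for Crisp1, 1.07 (1.06-1.09) for Spink8 and a 95% interval of 1.08-1.16 for B2m.

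That order held at matched depth for Crisp1 and B2m. In the 4 depth classes principal 13 had 48080.3, 41399, 43007 and 34668 UPM of Crisp1, each above the other 3 populations. For Spink8, principal 13 led in 3 classes and was under principal 15 among cells with 3000 to 8000 UMIs (31030 against 31505 UPM). Of the 50-base words in its last 400 bases, Crisp1 shared 5.98% with Crisp3, which was at 7.16 UPM, and Spink8 shared none.

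Cd52, a small glycoprotein that epididymal cells pass to sperm, was at 20378 UPM, with ratios to the other populations from 0.969 to 1.17. The metallothioneins Mt1 and Mt2, which bind zinc and copper, stood at 17628 and 9256 UPM in principal 13, below principal 12 (25677 and 13796) and above principal 15 (11211 and 5389). The remaining genes among its 15 most abundant were Crip1, Tmsb4x, Rpl41, Rps26, Dbi, Cox6c, Abcg2 and Plac8. Their ratios to the other populations ran from 0.673 for Rpl41 to 1.47 for Abcg2, in each case against principal 12. Abcg2, an efflux pump for xenobiotics and urate, was at 4222 UPM in principal 13, against 2879 in principal 12, 4155 in principal 14 and 4915 in principal 15. The gap to principal 12 was wider in shallow cells, at 4662 against 1279.7 UPM under 1000 UMIs and 4314 against 1807 UPM at 1000 to 3000 UMIs.

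Across all genes the comparison with principal 12 gave 193 genes at least 2-fold higher in principal 13 and 57 lower, of 6868 with at least 20 UMIs in either population (2.81% and 0.830%). Here and below a gene is called when the ratio reaches 2 and the higher population has at least 20 UMIs, with 3 UMIs standing in for lower counts. The median log2 ratio of all genes tested was 0.115, and centred on it the counts were 136 and 89. Against principal 14 there were 277 higher and 38 lower of 6351 (4.36% and 0.598%), and against principal 15 547 higher and 38 lower of 6368 (8.59% and 0.597%). With called doublets left out, the 38 lower than in principal 14 became 21. The median log2 ratios were 0.027 and 0.175, and centring changed the counts against principal 15 to 371 and 81. Where each cell weighed equally, as the mean over cells of each cell's share, the counts of higher and lower genes were far larger, at 1022 and 236 against principal 12, 920 and 100 against principal 14 and 1209 and 166 against principal 15. With counts divided by the authors' size factors they were 1063 and 231, 874 and 106, and 1177 and 174.

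The counts also moved with the minimum. With at least 50 UPM in the higher population, they were 30 higher and 5 lower against principal 12, 27 and 25 against principal 14, and 120 and 13 against principal 15. Of the 277 genes called higher than in principal 14, 111 had a counting interval that excluded 1, against 188 of 193 for principal 12 and 450 of 547 for principal 15. Most of the genes called higher than in principal 14 were therefore within counting error of it.

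**Figure D2:**
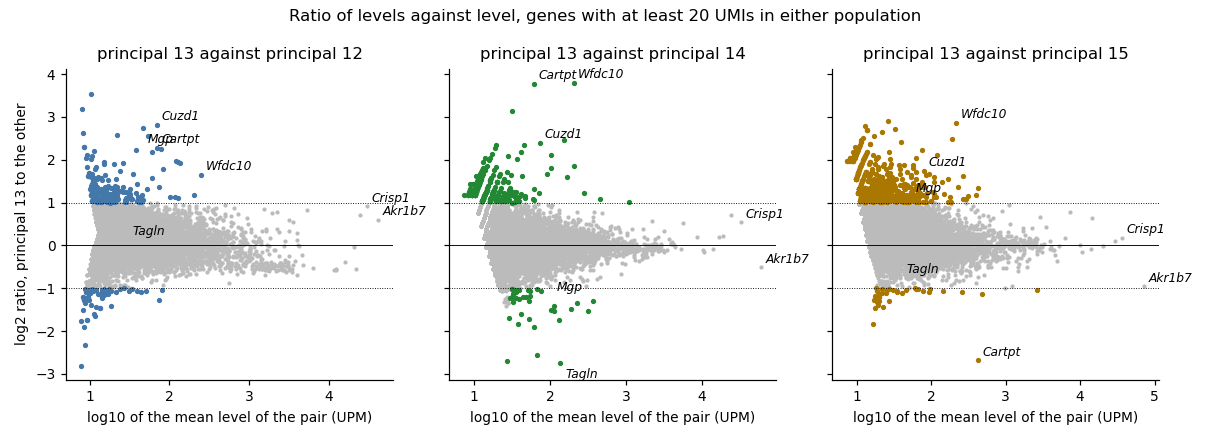
Log2 ratio of the level in principal 13 to that in principal 12, 14 and 15 against the log10 mean level of the pair in UPM, 1 point per gene with at least 20 UMIs in either. Coloured points are the called genes (193 and 57, 277 and 38, 547 and 38, higher and lower) and dotted lines mark a 2-fold ratio. Most called genes are at low levels, with Wfdc10, Cuzd1, Cartpt and Tagln among the exceptions.

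Against principal 12, the 8 genes with the largest ratios were Eln, Col3a1, Cuzd1, Mgp, Cyp4a12a, Igfbp6, Ccl2 and Col1a1. Of these, Eln (elastin), Col3a1 and Col1a1 (fibrillar collagens), Mgp (matrix Gla protein), Igfbp6 and Ccl2 are usually products of stromal cells. Their summed UMIs in principal 13 were few, with 28 for Eln against 1 in principal 12, 22 for Col3a1 against 1, and 113 for Mgp against 21. The 8 with the smallest ratios were Ly6d, Ccdc11, Crct1, Zc3h12a, Cd14, Cdh16, Srgap3 and Dynlt1c. All 8 were under 20 UPM in principal 12, Ly6d, a lymphocyte and epithelial surface antigen, having 1 UMI in principal 13 and 15.0 UPM in principal 12.

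Most stromal transcripts of principal 13, and many of its muscle transcripts, came from 37 of its cells. The study's first clustering had put 307 principal 13 cells in an 823-cell cluster, 52 in a 330-cell cluster, 37 in a 79-cell cluster and 4 in a 633-cell cluster, before the principal cells were clustered again. In the 37 cells the stromal markers summed to 631 UMIs (14719 UPM) and the muscle markers to 626 UMIs (14603 UPM). In the 307 cells they summed to 63 UMIs (52.2 UPM) and 477 UMIs (395 UPM). Gsn, an actin-severing protein abundant in fibroblasts, was at 5995 UPM in the 37 cells and at 11.6 in the 307, and Dcn (decorin) at 2659 and 8.28 UPM.

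These 37 cells were shallower than the rest, with a median of 964 UMIs, and had 52975 UPM of Akr1b7 and 22884 of Crisp1. Cells of the vas deferens library were scored for doublets, and the 98 highest scores, a number set beforehand, were called. Of principal 13 cells 15 were called, of which 11 were among the 37. The same 79-cell cluster supplied 29 of the 139 cells of principal 14, 12 of principal 15 and 1 of principal 12. The part of mixed droplets in the stromal level was not tested.

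**Figure D3:**
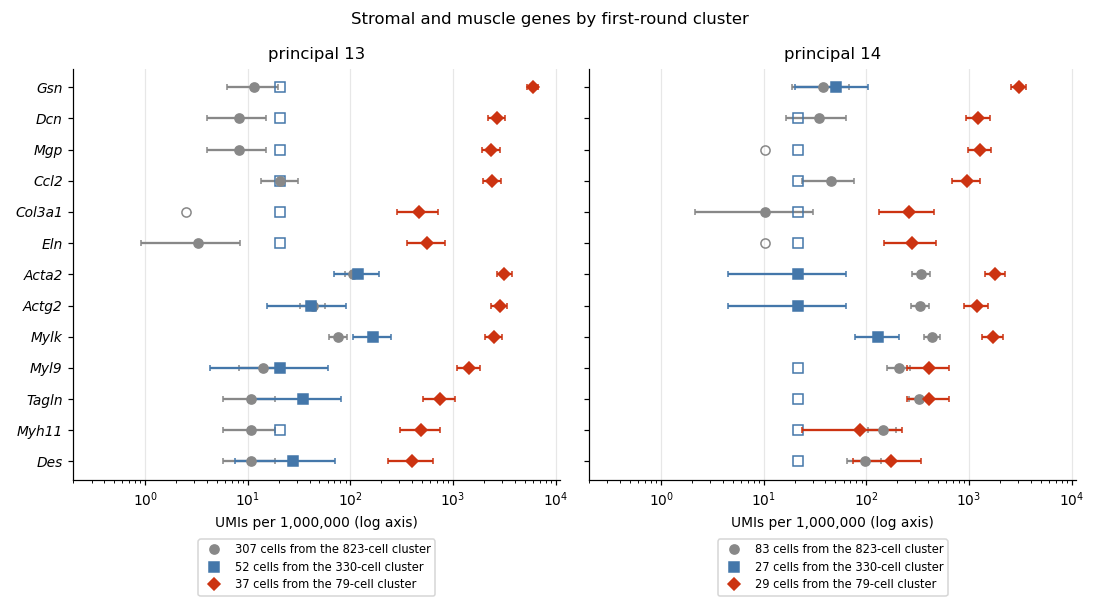
Levels in UPM (log axis) of 6 stromal and 7 muscle genes in principal 13 (left) and principal 14 (right), by the cluster of the first clustering from which the cells came. Bars are 95% counting intervals and open symbols mark fewer than 3 UMIs, drawn at the level of 3 UMIs. In principal 13 the 37 cells of the 79-cell cluster are above the others for all 13 genes, while in principal 14 the cells of the 823-cell cluster also carry muscle genes. The 4 principal 13 cells of the 633-cell cluster are not drawn.

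Without the 79-cell cluster the stromal excess of principal 13 was gone. The summed stromal level was 53.9 UPM in principal 13, 114 in principal 12, 117 in principal 14 and 68.7 in principal 15, where with all cells it had been 504, 124, 801 and 139.9. With all cells, 8 of 8 stromal markers tested were called higher than in principal 12 and 8 of 8 higher than in principal 15, against 2.81% and 8.59% of all genes. Without those cells only 3 stromal markers still had 20 UMIs in the comparison with principal 12, of which none was called higher and 2 lower, and none had them in the comparison with principal 15. The ratio of Mgp to principal 12 changed from 6.66 (4.16-11.2) to 0.851, and that of Gsn from 3.92 (3.06-5.05) to 0.239.

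The counts over all genes moved less. Without the 79-cell cluster, 167 genes were higher and 67 lower than in principal 12 (2.45% and 0.983%), with 156 and 48 genes called both ways. Against principal 14 the counts were 300 and 38 (4.81% and 0.609%), and against principal 15 531 and 40 (8.49% and 0.639%). The values that follow are for all cells unless stated.

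The muscle genes led the differences from principal 14 on the lower side. The 8 genes with the smallest ratios were Tagln, 2810417H13Rik, Csrp1, Myh11, Acta1, Tpm1, Des and Lcn2, and apart from 2810417H13Rik and the lipocalin Lcn2 these encode proteins of the contractile apparatus or its cytoskeleton. Tagln (transgelin) was at 35.8 UPM in principal 13 and 238 in principal 14, a ratio of 0.150 (0.105-0.211). Of the 8 muscle markers, 7 were called lower than in principal 14, against 0.598% of all genes, and without the 79-cell cluster all 8 were. The summed muscle level was then 413 UPM in principal 13 and 1686 in principal 14, against 278 in principal 12 and 441 in principal 15. Against principal 12, 6 of the 8 were called higher with all cells and 2 without the 79-cell cluster, and against principal 15, 2 were called higher with all cells and 2 of 7 lower without it. Muscle cells of the library had 10351 UPM of Tagln and basal cells 49.6. Called doublets were 13 of the 139 principal 14 cells and 15 of the 400 principal 13 cells. With them left out, 21 genes in place of 38 were lower than in principal 14, and the muscle markers were not recounted. The part of mixed droplets in the muscle level was not tested.

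Against principal 14 the genes with the largest ratios were Wfdc10, Cartpt, Defb11, Cxcl2, Cuzd1, S100a8, Wfdc9 and Csf3. Wfdc10 and Wfdc9 belong to the whey acidic protein family of protease inhibitors, and Defb11 to the beta-defensins, antimicrobial peptides of the epididymal lumen. Cuzd1 is a membrane protein with CUB and zona pellucida domains. Cxcl2 and Csf3 encode a neutrophil chemokine and a granulocyte growth factor, and S100a8 a calcium-binding protein of neutrophils and epithelia. Cxcl2 was at 254 UPM in principal 13 and 46.4 in principal 14 (ratio 5.48, 3.56-8.86), but at 372 in principal 12 and 192 in principal 15. Single cells held much of several of these genes. Of the UMIs in principal 13, 93 of the 160 of Cartpt, 22 of the 45 of Wfdc9, 30 of the 78 of Defb11 and 30 of the 105 of S100a8 were each in 1 cell.

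Against principal 15 the genes with the largest ratios were Lpin1, Wfdc10, Ceacam1, Defb11, Ltn1, Nim1k, Wnt4 and Igfbp6. Ceacam1, an adhesion molecule of epithelial cells, had 35 UMIs in principal 13 and 0 in principal 15, a ratio of 6.86 with 3 UMIs standing in for the latter. Lpin1, a phosphatidate phosphatase of lipid synthesis, was at 45.8 UPM in principal 13 and 45.7 in principal 12, against 14.7 in principal 14 and 6.08 in principal 15. The genes with the smallest ratios were Cartpt, Tradd, Gmnn, Tex30, Pstk, Hist1h2ac, Coa4 and Yars, of which only Cartpt exceeded 50 UPM in principal 15. Cartpt, the precursor of a neuropeptide, was at 114 UPM in principal 13 and 733 in principal 15, but 93 of its 160 UMIs in principal 13 were in 1 cell. From the shallowest depth class up it was at 57.3, 235, 2235 and 14.4 UPM in principal 15 and at 22.0, 91.4, 290.0 and 28.8 UPM in principal 13. The high level of principal 15 thus lay mainly in its cells of 3000 to 8000 UMIs.

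By at least 2-fold, 19 of 6873 genes (0.276%) were higher in principal 13 than in all 3 of the others, and 18 of 6820 (0.264%) without the 79-cell cluster, 15 of them the same. The number depended on how cells were weighed, since it was 197 with the mean over cells of each cell's share and 196 with the authors' size factors. None was 2-fold lower than all 3. The 10 with the largest ratio to the next population were Cuzd1 (3.33), Wfdc10 (3.12), Nim1k (2.80), Tmco6 (2.50), Vps13d (2.48), Tle2 (2.42), S100a8 (2.37), Cad (2.29), Cyp4a12a (2.26, 1.09-282) and Zfp868 (2.26, 0.825-30.0). For the last 2, principal 14 had 1 and 2 UMIs. Apart from Cuzd1, Wfdc10 and S100a8 each had fewer than 100 UMIs, and Cyp4a12a, a fatty acid hydroxylase, had 20 in 9 cells, with 11 in 1 cell. With a minimum of 50 UPM, 5 genes remained above all 3.

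Wfdc10 and Cuzd1 were not a property of principal 13 cells at large. Wfdc10 stood at 380.0 UPM (348-414) in principal 13, 122 in principal 12, 27.4 in principal 14 and 52.3 in principal 15, and Cuzd1 at 122 UPM (104-141), 17.3, 23.2 and 36.5. Principal 13 was the highest of the 4 for each gene in every depth class. Only 50 of the 400 cells had a UMI of Wfdc10, and 17 cells held 80% of its 531 UMIs. For Cuzd1, 43 cells had a UMI and 19 held 80% of 170. By contrast it took 145 cells to hold 80% of the Akr1b7 UMIs.

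At 1000 UMIs per cell, 31 of 238 principal 13 cells (13%, 9.02-18.0%) had a UMI of Wfdc10. The shares were 6.38% (3.62-10.3%) in principal 12, 3.33% (0.693-9.43%) in principal 14 and 4.40% (1.79-8.86%) in principal 15, at median depths of 7761, 2881 and 2870.0 UMIs. Basal cells, at a median depth of 3778, had 2.33% (1.01-4.54%). The interval of principal 13 overlapped those of principal 12 and 14 but not those of principal 15 or basal cells. The intervals of principal 12, 14 and 15 overlapped that of basal cells. Wfdc10 had been picked for its ratio in these same counts, so the shares describe and do not test. In the 22 clear cells deep enough, 5 had a UMI of Wfdc10 (22.7%, 7.82-45.4%), so this gene was not low in all other cell types of the library. Without thinning the shares were 12.5% in principal 13, 8.96% in principal 12, 3.60% in principal 14, 5.12% in principal 15 and 4.82% in basal cells. Wfdc10 was far higher in principal cells of the epididymal libraries, at 23224 UPM in the cauda, 9662 in the corpus and 7338 in the caput.

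The same cells tended to carry several of these genes. Of the 31 cells with Wfdc10, 12 had a UMI of Cuzd1 (38.7%), 18 of Defb2 (58.1%) and 6 of Defb11 (19.4%). Of the 207 cells without Wfdc10, 7 had Cuzd1 (3.38%), 13 had Defb2 (6.28%) and 2 had Defb11 (0.966%). Defb2 and Defb11 share part of their transcript ends, since 20.7% of the 50-base words in the last 305 bases of Defb2 occurred in Defb9, Defb10 or Defb11, so the split of reads between these defensins is uncertain.

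The cells with Wfdc10 also had less of the vas deferens markers and more of the genes that were highest in cauda principal cells. Their median count in 1000 UMIs was 38.0 for Akr1b7 against 52.0 in cells without Wfdc10, 2.00 against 4.00 for Abcg2, and 0 against 2.00 for the water channel Aqp2. It was 63.0 against 29.0 for Crisp1, 46.0 against 21 for Spink8 and 9 against 5 for B2m. Principal cells of the cauda library, leaving out the vas deferens populations, had 100879.8 UPM of Crisp1, 43818 of Spink8 and 13935 of B2m, with 124 of Akr1b7. The 2 sets of cells overlapped for each gene, and their median depths were 3708 and 4567 UMIs. Only 2 of the 31 cells were from the cauda library.

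**Figure D4:**
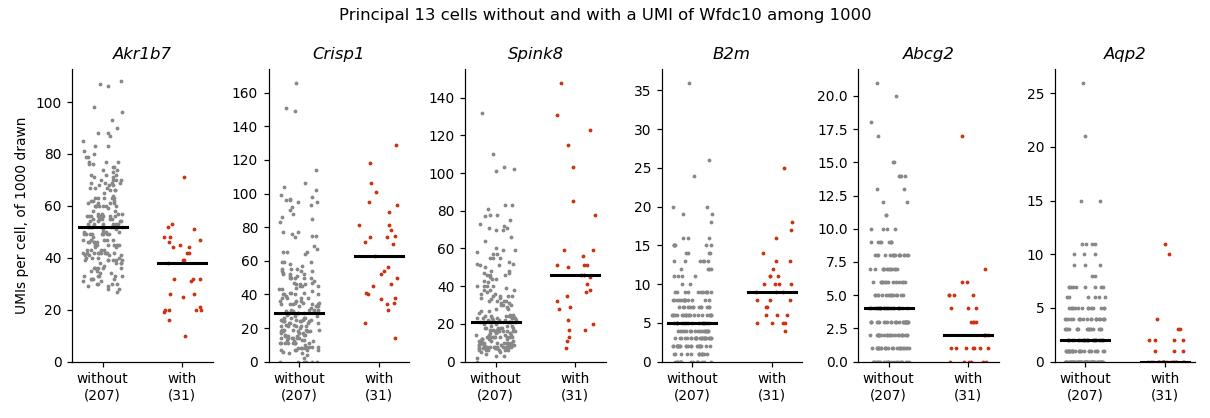
UMIs of 6 genes in each of 238 principal 13 cells after drawing 1000 UMIs per cell, in the 207 cells without and the 31 cells with a UMI of Wfdc10. Each point is a cell and black bars are medians. Cells with Wfdc10 sit lower for Akr1b7, Abcg2 and Aqp2 and higher for Crisp1, Spink8 and B2m, with overlap in every panel.

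The 4 cells from the cauda library had 297, 1824, 4458 and 5391 UMIs. Akr1b7 accounted for 0, 52, 202 and 190 of these, which is 0, 28509, 45312 and 35244 UPM. The 3 deeper cells also had Fxyd4 (3, 11 and 15 UMIs) and Crygc (1, 17 and 12 UMIs). Wfdc10 was in 2 of them, with 7 and 41 UMIs. The shallowest cell had none of the 3 markers and 35 UMIs of Spink8.

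Several of the principal 13 transcripts varied widely among its cells. Among 128 genes with a mean of at least 1 UMI in 1000, the median ratio of variance to mean was 1.46, where 1 would be Poisson sampling. The 8 largest ratios were those of Crisp1 (23.0), Spink8 (22.6), Actb (11.7), Akr1b7 (5.83), Mt1 (5.71), Cd52 (5.26), Aqp2 (4.92) and Hspa5 (4.62). This order is not that of spread relative to the mean. Akr1b7 had a mean of 51.8 and a standard deviation of 17.4 UMIs, whereas Aqp2 had 2.58 and 3.57. Crisp1 ranged from 0 to 166 UMIs with a median of 33.5, whereas Akr1b7 ranged from 10 to 108 with a median of 50.0. Actb, the cytoskeletal beta-actin, was at 0 in 70 cells and reached 46 UMIs.

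Some of this spread was shared between genes. Across the 238 cells, which come from few mice and 2 libraries and share 1 normalising depth, Spearman's rho was 0.65 for Crisp1 with Spink8, 0.60 for Crisp1 with B2m, 0.61 for Spink8 with B2m and 0.72 for Mt1 with Mt2. Akr1b7 did not follow Crisp1 (rho -0.18) or Spink8 (-0.09). Rpl41 had a rho of -0.40 with Crisp1 and 0.45 with Tmsb4x.

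The 330-cell cluster held 251 of the 332 principal 15 cells, and the 52 principal 13 cells from it were high for Akr1b7, Crisp1 and Spink8. They had 67118 UPM of Akr1b7, 52658 of Crisp1 and 47686 of Spink8, against 47632, 37659 and 28463 UPM in the 307 cells of the 823-cell cluster. Cd52 and Mt1 were lower in the 52 cells, at 17036 and 16356 against 21143 and 17884 UPM. The 52 cells were also shallower, with a median of 1199 against 2090 UMIs. In principal 13 at large, Akr1b7, Crisp1 and Spink8 were each higher in cells under 1000 UMIs than in those over 8000. The 4 cells of the 633-cell cluster held 3120 UMIs in all, and had 17308 UPM of Akr1b7 with 83974 of Spink8 and 4808 of Wfdc10.

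Few of the ion and water transport genes were called. Aqp2, the vasopressin-regulated water channel of the kidney collecting duct, was at 2862 UPM in principal 13 and between 2685 and 3186 in the others. Of 9 ion channels and transporters tested, 1 was called higher than in principal 12, 2 higher than in principal 15 and 1 lower than in principal 14, where the shares of all genes were 2.81%, 8.59% and 0.598%. The cation channel Trpm4 was the one called in 2 comparisons, at 25.0 UPM in principal 13, 8.67 in principal 12, 23.2 in principal 14 and 7.30 in principal 15. Kcnj16 and Kcnk1, potassium channels, were the highest in level at 209.7 and 159.6 UPM, and Slc26a2, a sulphate carrier, was the member lower than in principal 14 (19.3 against 44.2 UPM), and it was not called without the 79-cell cluster.

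Prostaglandin genes were abundant and none of 14 tested was called in any of the 3 comparisons. Ptgs2, the inducible cyclooxygenase, was at 3523 UPM (3426-3623) in principal 13, above principal 12 (2786), 14 (2771) and 15 (2235). Its level was higher in deeper cells, with 1616, 2578, 4135 and 3604 UPM in the 4 depth classes of principal 13, and principal 13 was above the other 3 in each depth class. Ptges, a prostaglandin E synthase, was at 1819.7 UPM in principal 13 and 1807 in principal 15. Of the enzymes that inactivate prostaglandins, Hpgd was at 829 UPM in principal 13, 617 in principal 12, 992 in principal 14 and 1593 in principal 15, and Ptgr1 at 656, 343, 1043 and 1308 UPM, so principal 13 was above principal 12 and below principal 15 for both. Without the 79-cell cluster Ptgr1 was called lower than in principal 15 (ratio 0.492), the 1 prostaglandin gene called.

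Of the aldo-keto reductases and crystallins in the matrix, 7 of 13 and 7 of 19 reached a level that could be compared. Among 7 aldo-keto reductases tested, none was called in any comparison, and Akr1a1 was next to Akr1b7 at 434 UPM. Among 7 crystallin genes tested, Crygb, Crygc and Cryl1 were called lower than in principal 15, against 0.597% of all genes. Cryz was called higher and Cryzl1 lower than in principal 14, and both encode quinone oxidoreductase-type enzymes.

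Cholesterol synthesis genes stood higher in principal 13 than in principal 15. All 22 members tested had a ratio above 1, and 8 were called higher, among them Pmvk, Idi1, Lss, Cyp51, Msmo1 and Insig1, against 8.59% of all genes. The median log2 ratio was 0.85, where that of all genes was 0.175. Lss (lanosterol synthase) was at 99.5, 96.0, 92.7 and 24.3 UPM in principal 13, 12, 14 and 15 (ratio to the last 4.09, 2.55-6.90).

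The list summed to 3639, 4412, 5194 and 4771 UPM in the 4 depth classes of principal 13 and to 2199, 2026, 2259 and 2785 UPM in those of principal 15. In the same classes it summed to 1592, 2201, 4598 and 4006 UPM in principal 12 and to 3008, 2347, 3359 and 4821 UPM in principal 14. Principal 13 was thus above principal 12 and 15 in every class and above principal 14 in the 3 shallower ones. The median log2 ratios to principal 12 and 14 were 0.25 and 0.27, with no member called against principal 12 and Dhcr7 alone called higher than in principal 14. Fdps, the most abundant member, was at 1132 UPM in principal 13 and 720.2 in principal 12.

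Ribosomal protein transcripts separated principal 13 from principal 12. The 64 genes that the name rule took in summed to 86254 UPM in principal 13, 121282 in principal 12, 89799 in principal 14 and 83611 in principal 15. Against principal 12 only 5 of 57 tested had a ratio above 1, and the median log2 ratio was -0.48. No ribosomal protein passed 2-fold, and the 1 member called, Rps6kb2, encodes a kinase of ribosomal protein S6. Against principal 14 no member was called, and against principal 15 the 2 called higher, Rps6kb2 and Rps6ka3, are both kinases. In every depth class principal 12 was the highest, from 167104 UPM in its shallowest cells to 114292 in its deepest, where principal 13 had 80427 and 90078 UPM.

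**Figure D5:**
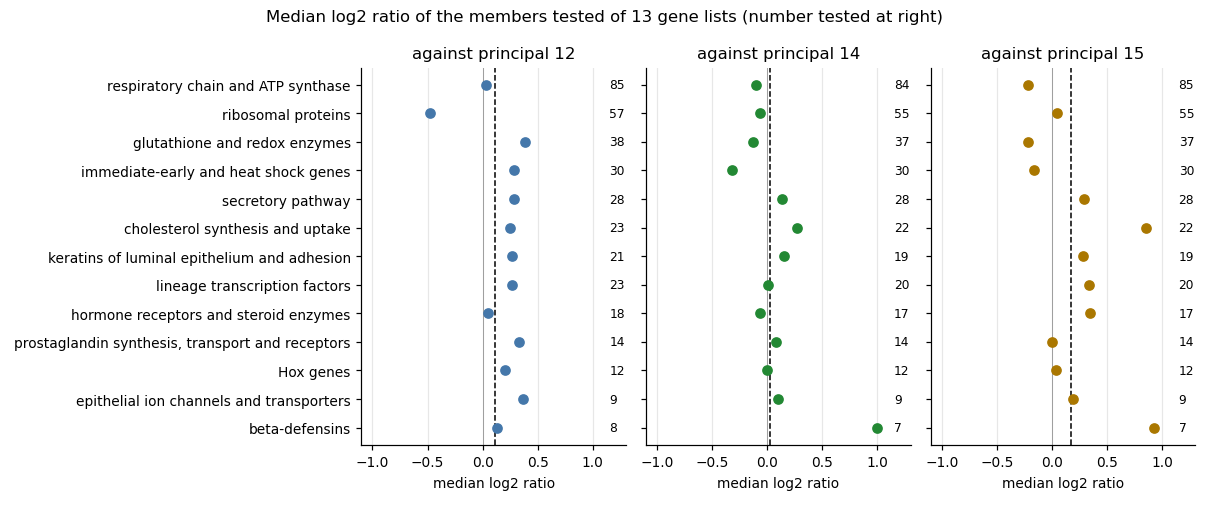
Median log2 ratio of principal 13 to principal 12, 14 and 15 over the tested members of 13 gene lists, with the number tested at the right of each panel. Dashed lines are the medians of all genes tested (0.115, 0.027 and 0.175). Ribosomal proteins are lowest against principal 12, and cholesterol synthesis genes and beta-defensins are highest against principal 15.

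None of 28 secretory pathway genes was called in any comparison. Their summed level was 11916 UPM in principal 13, 9929 in principal 12, 10741 in principal 14 and 9687 in principal 15. Hspa5, the main chaperone of the endoplasmic reticulum, was at 1945 UPM against 1079 in principal 12 (ratio 1.80, 1.70-1.91), and Hsp90b1 at 821 against 453 UPM. Of the respiratory chain and ATP synthase genes, 1 of 85 tested, Atp5s, was called lower than in principal 15 and none in the other comparisons. Against principal 12, 45 of 85 had a ratio above 1, with a median log2 ratio of 0.03. They summed to 46841 UPM in principal 13, 49827 in principal 12, 49935 in principal 14 and 52559 in principal 15. In cells over 8000 UMIs the sums were 48719, 48658, 46053 and 52172 UPM. In each shallower class principal 13 was the lowest, at 36536, 46608 and 45907 UPM from the shallowest up. The next lowest there were principal 14 (43683), principal 15 (55426) and principal 12 (51378).

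Some beta-defensins and Spink protease inhibitors were called higher than in principal 14 and 15. Of 7 beta-defensins tested, 4 (Defb2, Defb11, Defb28 and Defb43) were called higher than in principal 14, against 4.36% of all genes, and 3 (the same without Defb43) higher than in principal 15. None of 8 was called against principal 12. Defb2 had UMIs in 61 of the 400 principal 13 cells and Defb11 in 24, and part of their transcript ends is shared, so their calls are not separate. Defb2 was at 322 UPM in principal 13, 208 in principal 12, 88.5 in principal 14 and 57.2 in principal 15, and the most abundant member Defb43 at 1449.7, 1341, 723 and 761 UPM. By depth class, Defb2 was above principal 12 only in cells over 8000 UMIs (336 against 142 UPM). In the shallower classes it was at 308, 333 and 297 UPM in principal 13 against 406, 469 and 360.1 in principal 12, with overlapping intervals. Without the 79-cell cluster Defb43 was no longer called against principal 14. Of the Spink family, Spink10 and Spink11 were called higher than in principal 14 and 15, Spink11 being at 162 UPM against 46.4 and 58.4. Wfdc15b, the most abundant Wfdc member, was at 1908 UPM and not called.

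Redox and metal genes were called singly. Of 38 glutathione and redox genes tested against principal 12, 35 had a ratio above 1 with a median log2 ratio of 0.38, where 61.4% of all genes had a ratio above 1. Only Gstm5 and Gstm7 passed 2-fold, against 2.81% of all genes, and without the 79-cell cluster Gstm5 was at 1.99 and not called. Gpx3, the secreted glutathione peroxidase, was at 253 UPM in principal 13, 189 in principal 12, 84.3 in principal 14 and 86.4 in principal 15. Among metal genes, the zinc exporter Slc30a1 and the copper pump Atp7a were called higher than in principal 15, and Atp7a and the haem oxygenase Hmox1 higher than in principal 12.

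Pooled over cells, the immediate-early genes Fos and Klf2 were at levels between those of principal 12 and of the other 2. Fos was at 303 UPM in principal 13, 179 in principal 12, 518 in principal 14 and 661 in principal 15, and the shear-responsive factor Klf2 at 127, 37.0, 179 and 239 UPM. Of 30 members tested, Klf2 alone was called higher than in principal 12 (ratio 3.42, 2.56-4.63), where 2.81% of all genes were. None was called against principal 14. Fos and Hspa1a were called lower than in principal 15 and Fosl2 higher (1.97, and not called, without the 79-cell cluster). These orders were not the same at each depth. In cells under 1000 UMIs principal 14 exceeded principal 15 for Fos (547 against 447 UPM), and in cells of 1000 to 3000 UMIs Klf2 was at 215 UPM (148-302) in principal 13, 165 in principal 14 and 161 in principal 15. The whole list, pooled over cells, summed to 9071 UPM in principal 13 and 10627 in principal 15. In cells under 1000 UMIs it summed to 8334 UPM (7751-8949) in principal 13 and to 8281 in principal 15. In the deeper classes the sums were 8648, 9181 and 9188 UPM in principal 13 against 9064, 9645 and 12537 in principal 15. Such transcripts can be induced while tissue is being dissociated, and their part in these differences was not tested.

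Regulators of identity were shared across the populations. None of 12 Hox genes tested was called in any comparison, and Hoxb6 and Hoxb8 were the highest at 254 and 205 UPM. Of the lineage transcription factors, Cited1 led with 1606 UPM in principal 13, against 1277, 1928 and 2268, and Gata3 was at 252 UPM, with ratios of 1.08 to 1.20 to the others. Cebpd was called higher than in principal 12 (2.12, and 1.21 without the 79-cell cluster), Cited2 higher than in principal 14, and Sox9 and Ovol1 higher than in principal 15. None of 18 hormone receptor and steroid enzyme genes tested was called against principal 12, and Rara and Hsd17b7 were higher than in principal 15, the latter at 58.0 against 18.3 UPM. Proliferation genes summed to 437 UPM in principal 13 and 739.5 in principal 14, and none of 3 tested was called.

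Junction and adhesion genes were also compared. Of 19 tested against principal 15, all had a ratio above 1, as did 65.7% of all genes, and 4 were called higher, against 8.59% of all genes and with 6 called without the 79-cell cluster, namely Cdh1 (E-cadherin), the claudins Cldn1 and Cldn23, and Prom1, at 24.3 against 8.52 UPM. Against principal 12 the kidney cadherin Cdh16 was called lower, with 6 UMIs in principal 13. Of 7 ABC transporters tested against principal 12 none was called, and Abca1 was called higher than in principal 15 (2.09, and 1.84 without the 79-cell cluster). The tetraspanin Tspan14 was called higher than in principal 14, and the 3 Serpin genes tested were called in no comparison, Serpina1f being the most abundant at 2402 UPM. The sole carbonic anhydrase tested and the 2 aquaporins and 4 FXYD and pump genes tested were called in no comparison. Of 3 Wfdc genes tested, Wfdc10 and Wfdc9 were called higher than in principal 12 and 14 and Wfdc10 higher than in principal 15. The lipocalin Lcn2 was the only Lcn member tested and Crisp1 the only Crisp member. Of the basal markers, Krt14 alone was called, higher than in principal 12 and 15, and the 1 clear cell marker tested was not called.

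Of 22 genes that the study named for the vas deferens on these same cells, which makes them no independent evidence, Bgn and Mgp were called higher than in principal 12 and 15 and Crygb and Crygc lower than in principal 15. None was called against principal 14. Bgn (biglycan) and Mgp are matrix genes, and without the 79-cell cluster neither was called.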

How the data were processed

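Droplet RNA-seq libraries from 4 regions were sequenced and processed by the authors. The deposited counts are UMIs per gene and cell: reads were aligned to mm10 with HISAT2 2.0.4 (submitters' processing notes), assigned to RefSeq genes with ESAT without multiply aligned reads, merged by UMI, and corrected for ambient RNA with SoupX. The deposited size factors (a signal per cell from scran, by the authors) were used only as an alternative denominator. Population labels are the authors' own, and their numbers follow the study's tables by cell count. The ambient step had taken 2.46% of principal 13 UMIs.

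Counts were summed per population with Python 3.11.15, numpy 2.4.6, scipy 1.17.1 and pandas 2.3.3. The 95% interval of a level is the exact Poisson one, that of a ratio comes from the exact binomial split of its summed counts, and that of a share is Clopper-Pearson's. PCR errors and animals are outside them. The ratio calculation was tested on simulated data. Shares were compared after thinning to 1000 UMIs. Doublets were kept. Scrublet in scanpy 1.11.5 scored the 3506 vas deferens cells, and the 98 with the highest scores (2.80%) were called doublets. That number was set beforehand, at an assumed rate of 0.8% per 1000 cells. Of simulated doublets, 41.4% reached the lowest called score. Leaving out the called cells is an alternative. Alternatives were folds of 1.5 and 4, minimums of 10 and 50 UMIs, deeper cells, vas deferens cells only, other denominators, centring and, chosen after seeing the data, a minimum of 50 UPM and leaving out the 79-cell cluster. Figures used matplotlib 3.10.9.

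The members, gene lists and tests were chosen with earlier results of these data known. Genes named are the 3 markers, the 15 with most UMIs, the 8 largest and 8 smallest called ratios per comparison, the 10 with the largest ratio to the next population, the 8 with the largest spread among cells, and per list the 2 highest and the 2 most changed. Other genes, such as called list members, Crygb, Hspa5 and the genes followed in the Wfdc10 cells, were chosen after their values were seen. Results on some list members are not reported here.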

Additional observations from a re-analysis of the deposited data

How the results depend on the processing

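With 1 library per region, no replicate could be left out. No paired analysis was possible because the 4 libraries are 1 per region and the populations compared come from the same library. Of the recomputed counts and marker levels, 53 stayed within 1.5 times the reported count or within the counting interval of the reported level, 28 counts were larger and 22 smaller than that, and 8 levels moved. Counts are given as higher and lower against principal 12, then 14, then 15, then higher than all 3. A fold of 1.5 gave 922 and 285, 754 and 205, 1452 and 224, and 134. A fold of 4 gave 18 and 2, 15 and 3, 51 and 1, and 0. A minimum of 10 UMIs gave 427 and 164 against principal 12, 162 lower than principal 14, and 890 and 127 against principal 15. A minimum of 50 UMIs gave 48 and 10, 55 and 10, 188 and 12, and 6. A minimum of 50 UPM gave 30 and 5, 27 and 25, 120 and 13, and 5. Fewer or more genes pass by construction in these settings. Taking the mean over cells of each cell's share gave 1022 and 236, 920 and 100, 1209 and 166, and 197, and dividing by the authors' size factors gave 1063 and 231, 874 and 106, 1177 and 174, and 196; the cause was not tested. Centring gave 89 lower than principal 12 and 81 lower than principal 15. Leaving out called doublets gave 21 lower than principal 14, and the cause was not tested. Akr1b7 moved to 49212 UPM in cells with at least 1000 UMIs. Akr1b7 and Fxyd4 moved to 53669 and 2498 UPM as means over cells and to 54608 and 2549 with size factors. Per total without Akr1b7, the 3 markers were at 52339, 3076 and 1824 UPM. At 500 UMIs per cell the shares with a UMI of Fxyd4 and Crygc were 64.3% and 41.3%, against 87.8% and 56.3% at 1000. Depth limits the low genes: 3 UMIs stand for 2.15 UPM in principal 13 and 6.32 UPM in principal 14.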
